A study of Mus musculus with 2 samples.

Results

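Prostaglandins and leukotrienes are lipid mediators made from arachidonic acid, and 9 genes of their synthesis and sensing were followed here across the leukocytes of MC38 tumours. The genes are Ptgs1, Ptgs2, Ptges, Ptger2, Ptger4, Hpgds, Alox5, Alox5ap and Ltc4s, taken by symbol from the gene list of the deposited matrices. They are 9 of the 55357 genes listed, and all 9 had UMIs (unique molecular identifiers, 1 per captured transcript molecule). MC38 is a mouse colon carcinoma line. The tumours grew in SPP1fl/fl-Lyz2-icre mice, in which Cre driven from the Lyz2 locus acts on loxP-flanked Spp1 in macrophages, monocytes and neutrophils, and in SPP1fl/fl control mice, which carry the same floxed alleles without Cre. Viable CD45+ 7-AAD- cells were sorted and sequenced with 10x Genomics 3′ v3 chemistry. There was 1 library per genotype, called Lyz2-icre and control below. The number and age of the mice are not given in the labels. X- and Y-linked transcripts showed cells of both sexes in each library, so each pooled at least 1 female and 1 male source.

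With 1 library per genotype, no difference below has a replicate check and none was tested. A level is the UMIs of a gene per 1000000 UMIs summed over a cell class (counts per 1000000, CPM), and every interval is a 95% interval that covers UMI counting only. A ratio is Lyz2-icre over control. A gene counts as called when it differs at least 1.5-fold with an interval clear of 1 and has at least 10 CPM and 30 UMIs in the higher library. Levels of a gene are compared between cells, not between genes.

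The kept cells numbered 13915 in the Lyz2-icre library and 8724 in the control library, with a median of 6374 and 9380 UMIs per cell. Marker gates assigned 84.9% of Lyz2-icre cells and 85.3% of control cells to a cell type, and 11 types with at least 50 cells in both libraries were used for orders and calls. Macrophages made up most of them, with 9466 Lyz2-icre and 5311 control cells. Their Spp1 level was 3.12 CPM in the Lyz2-icre library and 607 CPM in the control library, and Lyz2, the gene whose promoter drives Cre, was at 4055 CPM in the Lyz2-icre and 11552 CPM in the control macrophages. RNA of macrophages also reached other barcodes: C1qa, a complement gene of macrophages, was at 142 CPM in Lyz2-icre NK cells and 133 CPM in control NK cells, 2.73% and 2.68% of the macrophage level of the same library. The fibroblast or tumour gate, set on collagen genes, held 249 Lyz2-icre and 171 control cells that a CD45 sort should have left out. Ptprc, which encodes CD45, was at 23.6 CPM in the gated Lyz2-icre cells and 34.0 CPM in the gated control cells, against 435 CPM in Lyz2-icre and 461 CPM in control macrophages. Of the gated cells, 90.8% in the Lyz2-icre and 85.4% in the control library had neither an Xist nor a Y-linked UMI. Among macrophages 16.7% and 8.42% had neither. Which of these cells are fibroblasts and which are tumour cells was not tested. Of the barcodes, 43 occurred in both libraries, and leaving them out changed no call in macrophages.

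As background, phospholipases free arachidonic acid from membranes. The cyclooxygenases encoded by Ptgs1 (constitutive in many cells) and Ptgs2 (induced by inflammatory stimuli) turn it into prostaglandin H2, from which Ptges makes prostaglandin E2 and Hpgds makes prostaglandin D2. Prostaglandin E2 is known in tumours for restraining T, NK and dendritic cells through the receptors encoded by Ptger2 and Ptger4. On the other branch, 5-lipoxygenase (Alox5), with its activating protein (Alox5ap), makes leukotriene A4, which leukotriene C4 synthase (Ltc4s) conjugates to glutathione.

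Each gene had its own place among the cell types, and for 7 of the 9 the highest type was the same in both libraries. The orders leave out types with fewer than 50 cells in either library, mast cells and basophils among them. Neutrophils led for Ptgs2, Alox5 and Alox5ap, migratory dendritic cells for Ptger4 and Ltc4s, macrophages for Hpgds, and the fibroblast or tumour gate for Ptges. In the Lyz2-icre library the intervals of the highest and the next type overlapped for Alox5, Alox5ap and Ltc4s. Ptgs1 was highest in macrophages of the Lyz2-icre library and in the fibroblast or tumour gate of the control library. Ptger2 was highest in neutrophils of the Lyz2-icre library on 1 UMI and in other T cells of the control library on 8 UMIs, so its order is not resolved. For Ptgs1 and Ptger2 the intervals of the first and next type overlapped in both libraries. Because macrophages were so many, they held most of the RNA of 8 genes in both libraries. Of the UMIs of all genes they held 73.5% in the Lyz2-icre and 65.4% in the control library. The Ltc4s shares of 61.6% and 63.6% lay below these. Macrophages carried 77.1% of the Ptgs2 UMIs of the Lyz2-icre library and 64.1% of those of the control library, close to their share of all UMIs. For Hpgds and Alox5ap the shares were 88.7% and 79.2% in the Lyz2-icre library and 88.1% and 69.6% in the control library. Ptges was the exception. Of its Lyz2-icre UMIs 26.1% lay in macrophages, 27.1% in the fibroblast or tumour gate and 39.5% in cells that met no gate, and in the control library 20.6%, 26.5% and 39.0%.

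**Figure D1:**
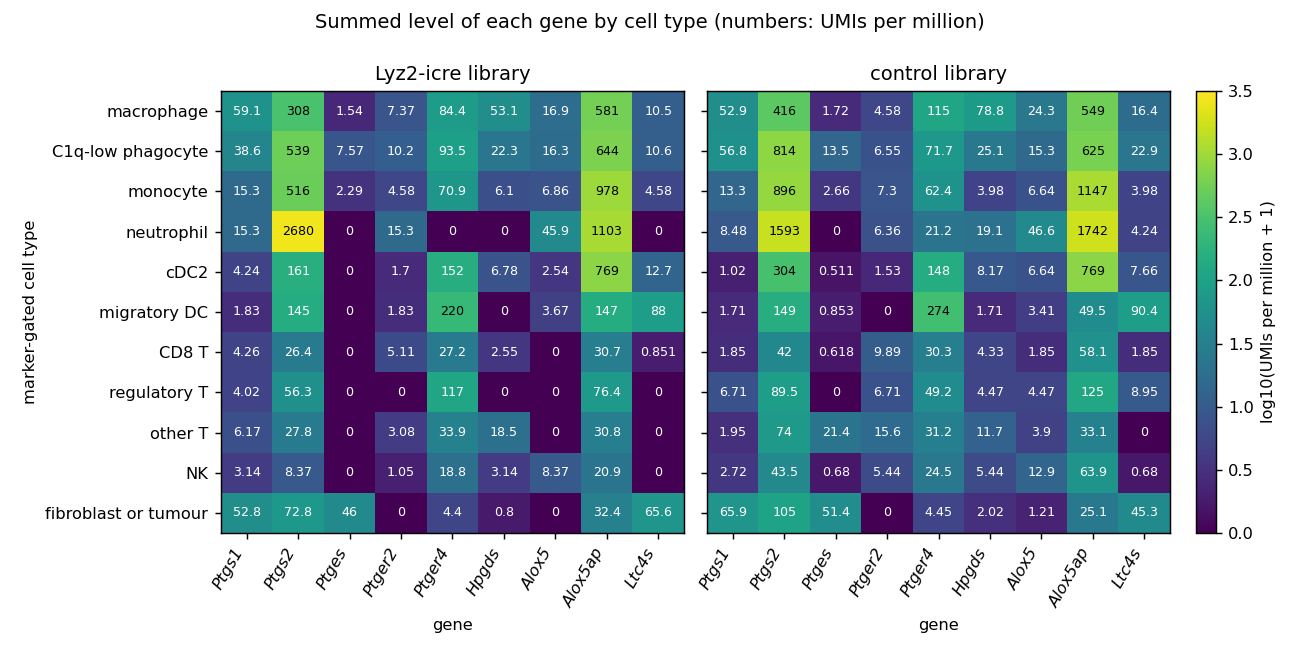
Level of each of the 9 genes (colour, log10 of CPM + 1, with the CPM printed in each cell) in the 11 cell types of the Lyz2-icre library and the control library. Ptgs2 and Alox5ap are high across myeloid types, Ptges in the fibroblast or tumour gate, and Ptger4 and Ltc4s in migratory dendritic cells.

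In macrophages 5 of the 7 members tested had a level in the Lyz2-icre library below that in the control library, and 1 of the 5 passed 1.5-fold. Ltc4s was the 1 member called, lower in the Lyz2-icre library, against 1.47% of the 7913 genes tested that were called lower in macrophages and 0.619% called higher (2.09% in either direction). At 2-fold no member was called, where 0.455% of genes were. The 7 members had a median log2 ratio of -0.42 (5 CPM added before the log), where the median over all genes tested was -0.02. The ratios below 1 were those of Ptgs2, Ptger4, Hpgds, Alox5 and Ltc4s, between 0.640 and 0.742, and those above 1 were those of Ptgs1 and Alox5ap, at 1.12 and 1.06.

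**Figure D2:**
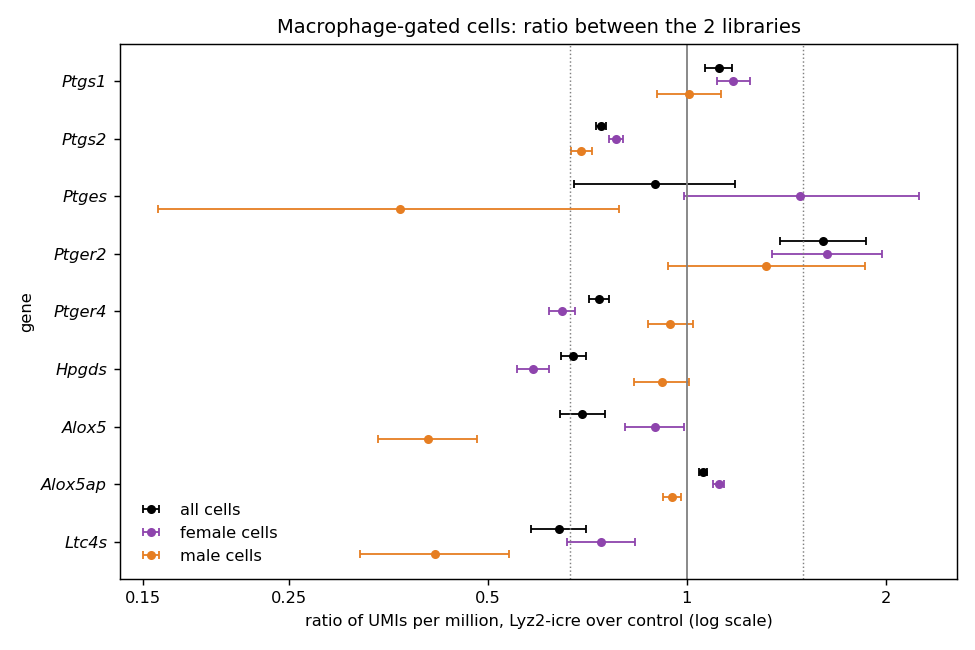
Ratio of CPM, Lyz2-icre over control (log axis), of the 9 genes in macrophages, in all, female and male cells, with 95% counting intervals and dotted lines at 1.5-fold. Ltc4s is the 1 called gene, at 0.640, and Hpgds, Ptger4 and Ptgs2 lie between 0.673 and 0.742.

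Both cyclooxygenase genes had most of their UMIs in macrophages, but they differed in the other types where they were high. Ptgs1 (chr2:36230426-36252272, plus strand, mm10) had 4266 UMIs and 59.1 CPM in Lyz2-icre macrophages, against 3045 UMIs and 52.9 CPM in control macrophages, a ratio of 1.12 (1.07 to 1.17). It was at 52.8 CPM in the Lyz2-icre and 65.9 CPM in the control cells of the fibroblast or tumour gate. In C1q-low phagocytes, cells with the macrophage list but little C1q, it was at 38.6 CPM in the Lyz2-icre and 56.8 CPM in the control library. Monocytes had 15.3 CPM in the Lyz2-icre library and 13.3 CPM in the control library, and lymphocyte and dendritic types had at most 8 UMIs each. Ptgs1 thus stood above the monocyte level in macrophages, C1q-low phagocytes and collagen-high cells of both libraries.

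Ptgs2 (chr1:150100031-150108227, plus strand) was spread over all myeloid types. Neutrophils had 2680 CPM in the Lyz2-icre library and 1593 CPM in the control library. C1q-low phagocytes of the Lyz2-icre library had 539 CPM, monocytes 516 CPM, macrophages 308 CPM and type 2 conventional dendritic cells (cDC2) 161 CPM. In the control library the same types had 814, 896, 416 and 304 CPM. In the Lyz2-icre library the intervals of C1q-low phagocytes and monocytes overlapped, and in the control library each of the 4 highest types lay clear of the next. Migratory dendritic cells had 145 CPM in the Lyz2-icre library and 149 CPM in the control library.

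The promoters of the 2 cyclooxygenase genes are shown because the genes encode enzymes of the same reaction but differed in which types were highest. They run from 250 bases before to 50 after the annotated start (RefSeq, GRCm38.p6), at chr1:150099781-150100080 for Ptgs2 and chr2:36230176-36230475 for Ptgs1, both on the plus strand. Capitals mark matches to the motifs searched on both strands.
Ptgs2: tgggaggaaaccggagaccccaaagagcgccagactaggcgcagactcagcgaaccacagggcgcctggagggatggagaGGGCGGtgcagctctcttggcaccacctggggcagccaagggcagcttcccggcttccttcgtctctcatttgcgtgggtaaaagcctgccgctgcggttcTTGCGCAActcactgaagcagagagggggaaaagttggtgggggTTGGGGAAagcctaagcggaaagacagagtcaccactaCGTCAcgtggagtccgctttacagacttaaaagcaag
Ptgs1: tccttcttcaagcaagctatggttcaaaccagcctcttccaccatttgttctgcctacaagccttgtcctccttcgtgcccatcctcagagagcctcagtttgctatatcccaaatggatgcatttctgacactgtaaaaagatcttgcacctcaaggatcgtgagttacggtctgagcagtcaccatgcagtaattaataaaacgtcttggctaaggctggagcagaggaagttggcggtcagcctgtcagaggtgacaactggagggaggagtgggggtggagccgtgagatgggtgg
The Ptgs2 window holds GGGCGG (a GC box) at position -170, TTNNGNAA (the form bound by C/EBP factors) at -69 and -25, and TGACG, the core of a cAMP response element, at 14, with the start counted as 1. The Ptgs1 window holds none of these. Neither window holds a TATAAA box, any CCAAT or the NF-kappaB motif. Among 32851 promoters, 35.7% held GGGCGG, 40.7% TTNNGNAA, 20.8% TGACG, 13.6% TATAAA, 37.4% CCAAT and 4.51% the NF-kappaB motif, so each is common apart from the last. A match describes letters and shows no binding.

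Ptgs2 was lower in the Lyz2-icre library in several types other than macrophages. In C1q-low phagocytes 1422 UMIs gave 539 CPM in the Lyz2-icre library, against 2236 UMIs and 814 CPM in the control library, a ratio of 0.662 (0.619 to 0.707), where 3.7% of genes were called lower. In monocytes the ratio was 0.576 (0.525 to 0.632), where 4.11% were called lower, and in cDC2 it was 0.529 (0.447 to 0.624), where 4.92% were. Within sex, the ratio in C1q-low phagocytes was 0.582 (0.533 to 0.635) in female cells and 0.971 (0.825 to 1.14) in male cells, so the call was lost in male cells. In cDC2 it was 0.524 in female cells and 0.717 (0.494 to 1.03) in male cells, also not past the limit. In monocytes it was 0.620 in female and 0.418 in male cells. Macrophages had a ratio of 0.742 (0.728 to 0.755), under the 1.5-fold limit. With each cell thinned to 2000 UMIs, 32.2% of Lyz2-icre and 36.4% of control macrophages held a Ptgs2 UMI (52.3% and 58.4% unthinned, at median depths of 7042 and 10213 UMIs). Of NK cells, which are not known for Ptgs2, 1.60% in the Lyz2-icre and 4.10% in the control library did. The summed level of the 8 neutrophil markers moved the same way in these types. In the Lyz2-icre library it was 65.0 CPM in macrophages, 128 CPM in C1q-low phagocytes, 204 CPM in monocytes and 311 CPM in cDC2, and in the control library 113, 185, 516 and 544 CPM. In neutrophils it was 103249 CPM in the Lyz2-icre and 142102 CPM in the control library. Its part in the Ptgs2 levels was not tested.

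In neutrophils the ratio went the other way. Lyz2-icre neutrophils had 175 Ptgs2 UMIs and 2680 CPM, against 752 UMIs and 1593 CPM in control neutrophils, a ratio of 1.68 (1.42 to 1.99), where 7.6% of genes were called higher. This rests on 60 Lyz2-icre cells with a median of 1052 UMIs and 165 control cells with a median of 2471 UMIs. No Lyz2-icre neutrophil reached 2000 UMIs, so shares at equal depth could not be given. In the neutrophil cluster of an unsupervised clustering the levels were 1361 CPM in the Lyz2-icre library (77 cells) and 1259 CPM in the control library (215 cells), a log2 ratio of 0.11 against 0.75 for the gate.

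**Figure D3:**
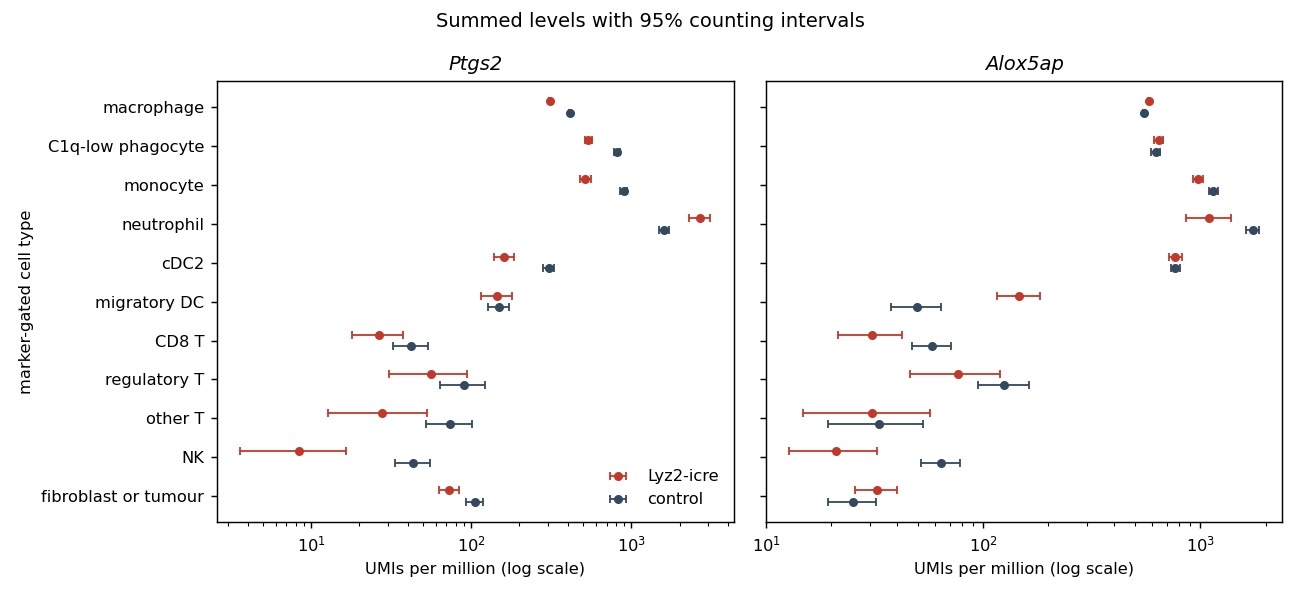
Levels of Ptgs2 and Alox5ap (CPM, log axis) in the 11 cell types, Lyz2-icre and control, with 95% counting intervals. Lyz2-icre Ptgs2 lies below control in C1q-low phagocytes, monocytes, cDC2 and NK cells, and above it in neutrophils (2680 and 1593 CPM).

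The lymphocyte types used for calls had lower Ptgs2 levels than migratory dendritic cells in both libraries. CD4 T cells, too few for calls, had 1 UMI in 41 Lyz2-icre cells and 90 UMIs in 63 control cells. Those 90 were 0.241% of the control Ptgs2 UMIs, in cells with 0.363% of all control UMIs. Control migratory dendritic cells held 0.469% of the Ptgs2 UMIs with 1.33% of all UMIs. The control CD4 T level thus lay above theirs. CD8 T cells had 31 UMIs and 26.4 CPM in the Lyz2-icre library, against 68 UMIs and 42.0 CPM in the control library, a ratio of 0.628, where 6.38% of genes were called lower. Lyz2-icre NK cells had 8 UMIs and 8.37 CPM, against 64 UMIs and 43.5 CPM in control NK cells, a ratio of 0.192, where 5.85% were called lower. Other T cells had 9 UMIs and 27.8 CPM in the Lyz2-icre library, against 38 UMIs and 74.0 CPM in the control library, a ratio of 0.375, where 5.33% were. In female cells the ratio was 0.843 (0.446 to 1.55) in CD8 T cells, 0.711 (0.226 to 1.94) in other T cells and 0.222 (0.0684 to 0.565) in NK cells, and in male CD8 T cells it lay above 1. A single cell gave 30.9% of the control UMIs in CD8 T cells, 40.6% in NK cells and 55.3% in other T cells. As a share of the macrophage level, Ptgs2 in NK cells stood at 2.71% in the Lyz2-icre library, close to the 2.73% of C1qa, and at 10.5% in the control library. The neutrophil markers summed to 6.28 CPM in Lyz2-icre and 59.2 CPM in control NK cells, and their part in these levels was not tested. With clusters in place of gates the ratio turned above 1 in NK and CD8 T cells.

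Within macrophages, Ptgs2 went with Il1b, the gene of interleukin 1 beta. States were set by 2 or more UMIs, or none, of a state gene at 2000 UMIs per cell. Macrophages with 2 or more Il1b UMIs had 461 CPM of Ptgs2 in the Lyz2-icre library and 608 CPM in the control library. Macrophages with none had 177 CPM (168 to 188) in the Lyz2-icre library and 162 CPM (150 to 176) in the control library, so the genotypes overlapped there. In the Lyz2-icre library macrophages high in Arg1, the arginase gene, had 372 CPM and those with no Arg1 UMI 280 CPM. In the control library the levels were 561 and 346 CPM. Macrophages high in the chemokine gene Ccl8 had less Ptgs2 than those without, by a ratio of 0.689 in the Lyz2-icre library and 0.770 in the control library. For the chemokine gene Cxcl9 the same ratios were 1.01 in the Lyz2-icre library and 1.11 in the control library.

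**Figure D4:**
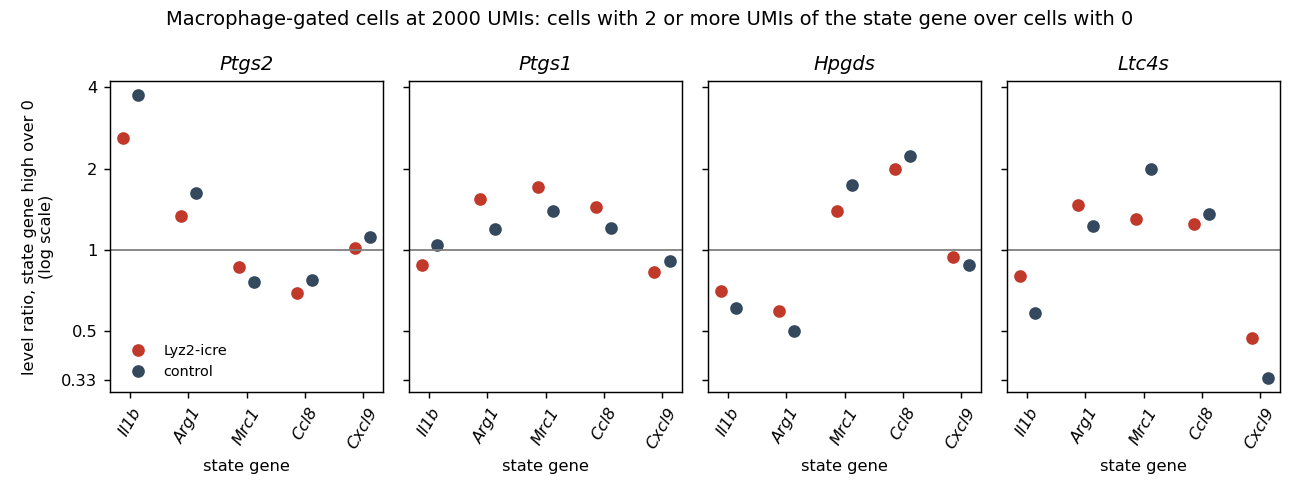
Ratio of the CPM of Ptgs2, Ptgs1, Hpgds and Ltc4s in macrophages with 2 or more UMIs of a state gene over those with none (log axis), Lyz2-icre and control. Of the 5 state genes, Il1b gives the highest ratio for Ptgs2 (2.60 Lyz2-icre, 3.74 control) and Ccl8 for Hpgds (1.99 Lyz2-icre, 2.23 control).

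Ptges (chr2:30889471-30929863, minus strand), which acts downstream of the cyclooxygenases to make prostaglandin E2, was nearly absent from most macrophages. The gate held 111 UMIs and 1.54 CPM in the Lyz2-icre library and 99 UMIs and 1.72 CPM in the control library, below the level at which a difference was called. The fibroblast or tumour gate had 115 UMIs and 46.0 CPM in the Lyz2-icre library and 127 UMIs and 51.4 CPM in the control library. There, 33.3% of Lyz2-icre and 45.0% of control cells held a UMI, and no cell held more than 5.51% of them. C1q-low phagocytes had 20 UMIs and 7.57 CPM in the Lyz2-icre library, against 37 UMIs and 13.5 CPM in the control library. The ratio of 0.562 (0.309 to 0.994) was called lower, where 3.7% of genes were called lower. However, 1 cell gave 25% of these UMIs in the Lyz2-icre library and 48.6% in the control library. Within sex that ratio was 0.690 (0.333 to 1.37) in female cells. Male cells had 1 UMI in the Lyz2-icre and 0 in the control library, which gives no direction.

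Outside the fibroblast or tumour class, Ptges was highest in clusters that also had much Ptgs2. In a first clustering, made without the 9 genes, this was a cluster of 1259 Lyz2-icre and 760 control cells, named macrophage from its markers. It was led by the genes Hspa1b, Tnfrsf9, Hspa1a, Cxcl3 and Nos2. Ptges was at 11.6 CPM in the Lyz2-icre cells and 26.4 CPM in the control cells, against at most 2.02 CPM in the Lyz2-icre and 5.20 CPM in the control cells of the other 9 phagocyte clusters with at least 50 cells in both libraries. A further macrophage cluster of 25 Lyz2-icre cells and no control cell had 25.8 CPM, from 2 UMIs of 1 cell. The large cluster held 23.1% of the Lyz2-icre and 41.0% of the control Ptges UMIs, and the fibroblast or tumour cluster 56.9% of the Lyz2-icre and 42.1% of the control ones. The rest was spread thinly over other clusters. Ptgs2 was at 546 CPM in the Lyz2-icre and 1044 CPM in the control cells of the large cluster, where the other 9 reached up to 554 CPM in the Lyz2-icre and 903 CPM in the control library. A second clustering with another random seed drew a tighter one of 87 Lyz2-icre and 199 control cells, 84 and 198 of them from the first cluster, which the marker rules left unnamed. It was picked for the highest Ptges level outside the fibroblast or tumour class. Of its Lyz2-icre cells 24 met the macrophage gate, 15 the C1q-low phagocyte gate and 41 no gate. Of its control cells 25, 27 and 126 did, so its levels are not those of a gated phagocyte type. Its leading genes were Slpi, Cxcl3, Inhba, Saa3 and Nos2, and Il6 and Il1a were among the next. Ptges was at 120 CPM in its Lyz2-icre cells (66 UMIs in 17 cells) and 88.9 CPM in its control cells (176 UMIs in 45 cells), and Ptgs2 at 2554 CPM in the Lyz2-icre and 2368 CPM in the control cells. These cells were 0.625% of the Lyz2-icre library and held 15.5% of its Ptges UMIs, and 2.28% of the control library with 36.7%. The same cells had little Hpgds, at 18.2 CPM in the Lyz2-icre library and 15.7 CPM in the control library. The Lyz2-icre level of Ptges was thus below the control level in the first cluster and above it in the second, so no ratio between the libraries is read from either.

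**Figure D5:**
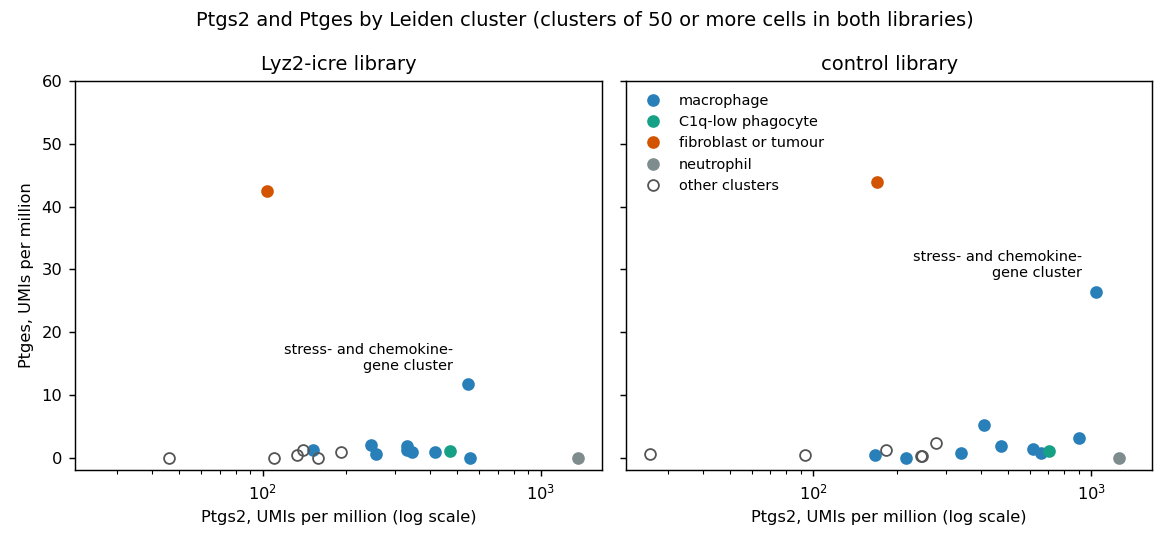
Ptges level (CPM) against Ptgs2 level (CPM, log axis) of each cluster of the first clustering with at least 50 cells in both libraries, Lyz2-icre left and control right, coloured by cluster name. The cluster printed as stress- and chemokine-gene cluster is the one led by Hspa1b, Tnfrsf9, Hspa1a, Cxcl3 and Nos2. It has Ptges at 11.6 CPM (Lyz2-icre) and 26.4 CPM (control), above the other plotted macrophage clusters and below the fibroblast or tumour cluster.

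Cells were also split by single genes. Among macrophages and C1q-low phagocytes, those with a UMI of Inhba, a gene of activin A, at 2000 UMIs per cell had 25.6 CPM of Ptges in the Lyz2-icre library (190 cells), against 1.20 CPM in those without. In the control library the levels were 32.9 CPM (117 cells) and 1.5 CPM. Ptgs2 was at 892 CPM with and 302 CPM without an Inhba UMI in the Lyz2-icre library, and at 1150 and 413 CPM in the control library. Split by Cxcl3, Ptges was at 9.57 CPM with and 1.40 CPM without a UMI in the Lyz2-icre library and at 18.1 and 1.11 CPM in the control library. Inhba and Cxcl3 were picked as leading genes of the cluster after it was seen. Within the macrophage gate at 2000 UMIs per cell, 9 Lyz2-icre cells held UMIs of both Ptgs2 and Ptges, against 7.07 from the product of their shares, and 7 control cells, against 5.10.

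Hpgds (chr6:65117293-65144908, minus strand), the prostaglandin D2 synthase of blood cells, had the largest share of its UMIs in macrophages among the 9 genes, in both libraries. It had 3835 UMIs and 53.1 CPM in Lyz2-icre macrophages, against 4540 UMIs and 78.8 CPM in control macrophages, a ratio of 0.673 (0.645 to 0.703). This lies just inside the 1.5-fold limit, and Hpgds passed it with per-cell means, thinned cells and doubled gates. At 2000 UMIs per cell, 9.90% of Lyz2-icre and 15.2% of control macrophages held an Hpgds UMI, against 1.06% of Lyz2-icre and 1.03% of control NK cells. Among the types used for orders, C1q-low phagocytes followed with 22.3 CPM in the Lyz2-icre library and 25.1 CPM in the control library. Mast cells and basophils, too few for the order, had 8 Hpgds UMIs in the Lyz2-icre and 40 in the control library. Their level lay above that of macrophages in both libraries. Ccl8-high macrophages had 92.7 CPM in the Lyz2-icre library and 183 CPM in the control library, and macrophages with no Ccl8 UMI had 46.6 CPM in the Lyz2-icre library and 82.2 CPM in the control library. Macrophages high in the mannose receptor gene Mrc1 had 66.0 CPM in the Lyz2-icre library and 127 CPM in the control library, and those with no Mrc1 UMI 47.3 and 73.0 CPM. Arg1-high macrophages had 40.2 CPM in the Lyz2-icre library and 53.7 CPM in the control library, and those with no Arg1 UMI had 67.6 and 107 CPM, the opposite order to Ptgs2 in the same split. The order differed in the first clustering, where a macrophage cluster of 214 Lyz2-icre and 210 control cells had the highest Hpgds of the 10 in both libraries (124 CPM Lyz2-icre, 177 CPM control) with Ptgs2 at 554 CPM in the Lyz2-icre and 903 CPM in the control cells. That cluster had a median depth of only 867 UMIs in the Lyz2-icre and 1360.5 UMIs in the control library. Its Lyz2-icre Hpgds level rested on 28 UMIs. Most of its cells lay under the 2000 UMIs needed for the state splits, so the 2 orders come from different cells. In all of these states and in this cluster the Lyz2-icre level of Hpgds was the lower. The ratio was 0.585 in female and 0.916 in male macrophages.

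Of the prostaglandin E2 receptors, Ptger4 (chr15:5206661-5244187, minus strand) was highest in migratory dendritic cells, with 220 CPM in the Lyz2-icre library and 274 CPM in the control library, a ratio of 0.803 (0.646 to 0.994). Next came cDC2, with 152 CPM in the Lyz2-icre library and 148 CPM in the control library. Macrophages had 84.4 CPM in the Lyz2-icre and 115 CPM in the control library, a ratio of 0.735 (0.710 to 0.762). That ratio was 0.646 in female and 0.945 in male macrophages. In the Lyz2-icre library C1q-low phagocytes had 93.5 CPM, monocytes 70.9 CPM, CD8 T cells 27.2 CPM and NK cells 18.8 CPM, and in the control library these types had 71.7, 62.4, 30.3 and 24.5 CPM. In NK cells this was 22.3% of the macrophage level in the Lyz2-icre library and 21.3% in the control library, where C1qa stood at 2.73% and 2.68%. Regulatory T cells had 29 UMIs and 117 CPM in the Lyz2-icre library, against 22 UMIs and 49.2 CPM in the control library, a ratio of 2.37 (1.31 to 4.33) short of the 30 UMIs needed for a call. No member was called in these cells, where 8.88% of genes were called in either direction. At equal depth, 17.8% of 45 Lyz2-icre and 8.86% of 79 control regulatory T cells held a Ptger4 UMI. Neutrophils had no Ptger4 UMI in the Lyz2-icre library, which allows up to 45.9 CPM (3 UMIs of that gate's total, the limit used for every count of 0), and 21.2 CPM in the control library. Ptger4 overlaps Ttc33 on the other strand, and the strand setting of the counting is not given, so reads of the 2 genes may have been mixed.

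Ptger2 (chr14:44988195-45003820, plus strand), the other receptor of this pair, was low everywhere. Macrophages had 532 UMIs and 7.37 CPM in the Lyz2-icre library, against 264 UMIs and 4.58 CPM in the control library, a ratio of 1.61 (1.38 to 1.87) below the 10 CPM needed for a call. Without that filter Ptger2 would be called higher, where 5.2% of genes would be called in either direction. Arg1-high macrophages had more of it than those without, by a ratio of 2.86 in the Lyz2-icre library and 1.40 in the control library. The fibroblast or tumour gate had no Ptger2 UMI in either library, which allows up to 1.20 CPM in the Lyz2-icre and 1.21 CPM in the control cells.

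On the leukotriene branch, Alox5ap (chr5:149264767-149288153, plus strand) was high across the myeloid types. Its Lyz2-icre levels were 1103 CPM in neutrophils, 978 CPM in monocytes, 769 CPM in cDC2, 644 CPM in C1q-low phagocytes and 581 CPM in macrophages. In the control library these types had 1742, 1147, 769, 625 and 549 CPM. The Lyz2-icre intervals of neutrophils and monocytes overlapped, and in the control library the order was clear of overlap down to C1q-low phagocytes. Migratory dendritic cells stood far below cDC2, at 147 CPM in the Lyz2-icre library and 49.5 CPM in the control library. In macrophages 41964 UMIs in the Lyz2-icre library and 31601 in the control library gave a ratio of 1.06 (1.04 to 1.07), and 66.2% and 63.3% of cells held a UMI at 2000 UMIs per cell. Of NK cells 1.06% in the Lyz2-icre and 8.21% in the control library did.

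Alox5ap was called in 4 cell types. In neutrophils 72 UMIs in the Lyz2-icre library and 822 in the control library gave a ratio of 0.633, lower, where 8.16% of genes were called lower. CD8 T cells had 30.7 CPM in the Lyz2-icre library, against 58.1 CPM in the control library, a ratio of 0.528, where 6.38% were called lower. NK cells had 20.9 CPM in the Lyz2-icre library, against 63.9 CPM in the control library, a ratio of 0.327, where 5.85% were called lower. The NK level was 3.60% of the macrophage level in the Lyz2-icre library and 11.7% in the control library. The CD8 T ratio lay above 1 in female cells, and the NK ratio lay above 1 with clusters in place of gates. In migratory dendritic cells 80 UMIs in the Lyz2-icre library and 58 in the control library gave a ratio of 2.96 (2.09 to 4.23), where 2.62% were called higher. A single cell gave 25% of the Lyz2-icre UMIs there. Female cells had 78.3 CPM in the Lyz2-icre library and 40.1 CPM in the control library, a ratio of 1.95 (1.14 to 3.34). Male cells had 539 CPM in 11 Lyz2-icre cells and 42.3 CPM in 26 control cells. In the migratory dendritic cluster, which held 128 Lyz2-icre and 240 control cells, the log2 ratio was 0.04, against 1.48 for the gate.

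Alox5 (chr6:116410077-116461178, minus strand), the lipoxygenase itself, was highest in neutrophils among the types used for orders, on few UMIs. Mast cells and basophils, too few for the order, had a higher level in both libraries. They held 0.876% of Lyz2-icre Alox5 UMIs with 0.0314% of all UMIs, and 2.95% of control ones with 0.159%. Neutrophils had 45.9 CPM on 3 UMIs in the Lyz2-icre library, with an interval of 9.48 to 134 CPM that held the macrophage level, and 46.6 CPM on 22 UMIs in the control library. Macrophages had 1218 UMIs and 16.9 CPM in the Lyz2-icre library, against 1397 UMIs and 24.3 CPM in the control library, a ratio of 0.695 (0.643 to 0.751). The ratio was 0.894 (0.807 to 0.991) in female and 0.406, past the 1.5-fold limit, in male macrophages. Monocytes, second for Alox5ap, had 6.86 CPM in the Lyz2-icre and 6.64 CPM in the control library. NK cells had 8.37 CPM (8 UMIs) in the Lyz2-icre library and 12.9 CPM (19 UMIs) in the control library, which was 49.6% of the macrophage level in the Lyz2-icre library and 53.3% in the control library. CD8 T cells had no Alox5 UMI in the Lyz2-icre library and 1.85 CPM in the control library. Mrc1-high macrophages had more Alox5 than those without, by a ratio of 1.79 in the Lyz2-icre and 1.59 in the control library, and Cxcl9-high macrophages had less, by 0.473 and 0.613.

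Ltc4s (chr11:50236461-50238616, minus strand) was highest in migratory dendritic cells, where 48 UMIs gave 88.0 CPM in the Lyz2-icre library and 106 UMIs gave 90.4 CPM in the control library. The fibroblast or tumour gate followed, with 164 UMIs and 65.6 CPM in the Lyz2-icre library and 112 UMIs and 45.3 CPM in the control library, a ratio of 1.45 (1.13 to 1.86). The intervals of both types overlapped in the Lyz2-icre library and not in the control library. No member was called in that gate, where 8.07% of genes were called in either direction. In the fibroblast or tumour cluster of the first clustering, Ltc4s was at 43.5 CPM in Lyz2-icre and 41.1 CPM in control cells. Macrophages had 756 UMIs and 10.5 CPM in the Lyz2-icre library, against 942 UMIs and 16.4 CPM in the control library, and Ltc4s was called lower there at a ratio of 0.640 (0.581 to 0.705). The share of macrophages with a UMI at equal depth was 2.07% in the Lyz2-icre library and 3.5% in the control library, against none of 188 Lyz2-icre and 195 control NK cells. C1q-low phagocytes had 28 UMIs and 10.6 CPM in the Lyz2-icre library, against 63 UMIs and 22.9 CPM in the control library. Ltc4s was also called lower there, at 0.462 (0.285 to 0.733), where 3.7% of genes were called lower. Within sex the macrophage ratio was 0.741 (0.658 to 0.834) in female cells, short of the 1.5-fold limit, and 0.416 in male cells. Cxcl9-high macrophages had less Ltc4s than those without, by ratios of 0.471 and 0.334 in the Lyz2-icre and control libraries.

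Of the other 51 genes of prostanoid and leukotriene synthesis, breakdown and sensing, 22 passed the level filter in macrophages, 13 with a ratio above 1 and 9 below. Their median log2 ratio was 0.02, and 1 was called. This was Hpgd, the dehydrogenase that inactivates prostaglandins, with 352 UMIs and 4.87 CPM in the Lyz2-icre library, against 692 UMIs and 12 CPM in the control library, a ratio of 0.406 (0.356 to 0.462). The ratio was 0.331 in female and 1.19 in male macrophages. In Lyz2-icre macrophages thromboxane synthase (Tbxas1) was at 118 CPM, cytosolic phospholipase A2 (Pla2g4a) at 49.5 CPM, leukotriene A4 hydrolase (Lta4h) at 26.9 CPM, and the leukotriene receptor genes Ltb4r1 and Cysltr1 at 88.9 and 119 CPM. In control macrophages these genes were at 117, 48.1, 24.4, 70.3 and 101 CPM. Ptgds, Ptgdr, Ptgfr, Dpep1 and Oxgr1 had no UMI in macrophages of either library.

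Outside macrophages 7 calls of these genes were made, in monocytes, neutrophils, cDC2 and other T cells. None was called among the 21 tested in C1q-low phagocytes or the 14 tested in the fibroblast or tumour gate. Monocytes had 175 CPM of Pla2g7 (a phospholipase that breaks down platelet-activating factor) in the Lyz2-icre library, against 275 CPM in the control library, and 25.9 CPM of the dipeptidase gene Dpep2, against 53.1 CPM in the control library. Lyz2-icre monocytes also had less Ptgr1, at 6.86 CPM against 20.6 CPM in control monocytes. Their Hpgd was higher, at 29.0 CPM against 12.6 CPM in control monocytes, the opposite side of 1 from macrophages. In monocytes, where 21 of these genes were tested, 4.84% of all genes were called higher and 4.11% lower. Lyz2-icre neutrophils had 91.9 CPM of Mgst1, a microsomal glutathione transferase, on 6 UMIs, against 256 CPM on 121 UMIs in control neutrophils. There 8.16% of genes were called lower. Lyz2-icre cDC2 had 62.8 CPM of Plaa, against 37.3 CPM in control cDC2, where 3.27% of genes were called higher. Other T cells had 71.0 CPM of Akr1b3 in the Lyz2-icre library, against 146 CPM in the control library, where 5.33% of genes were called lower.

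Over the 11 cell types, the genes whose log2 levels ran most like each member were found among 8506 genes, as the lower of the 2 libraries' Pearson r. Ptgs2 was closest to Mcl1 (0.981), Sh2b2 and Trib1, and Alox5ap to Nfam1 (0.976), Cd300a and Lyn. Ptgs1 was closest to Rnase4 (0.952), Snx24 and Pdpn, Ltc4s to Nectin2 (0.916), Rab13 and Lima1, and Ptger4 to Scamp2 (0.913), Rgs10 and Dennd4b. Ptges was closest to Plpp3 (0.901), Grtp1 and Cav1, Hpgds to Folr2 (0.886), Ccl12 and Fcrls, and Alox5 to P2ry13 (0.872), Gla and Lilr4b. The 11 points share their libraries, and these values describe the order of cell types.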

How the data were processed

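The 9 members, the gene lists and the comparisons were chosen with earlier results of these data known. The deposited files hold raw UMI counts per gene and cell, 1 filtered matrix per library; per the file headers they come from Cell Ranger 8.0.1, and the submitters' processing notes name bcl2fastq 5.0.1 and mm10. The annotation release and strand setting are not given in the sources used here. A cell was kept if it had 300 genes, 500 UMIs and no more than 15% mitochondrial UMIs (13915 of 13944 Lyz2-icre and 8724 of 9154 control barcodes; 98256831 and 88047097 UMIs). No doublet caller was run: cells meeting several gates (59 and 65) were left out.

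Cell types came from per-cell gates on marker lists; their limits were set after the lists' levels per cluster, not the members' levels, had been seen. The neutrophil limit on macrophage markers was relaxed after the cell numbers were seen. Clusters (Leiden, scanpy 1.11.5; 2000 variable genes without the members, 30 components, 15 neighbours, resolution 1) served as an alternative; their neighbour search was made exact after results of an approximate one had been seen, and a second clustering with another seed was added. Counts were summed per type and library; ratios have exact conditional binomial intervals and levels exact Poisson intervals (scipy 1.17.1). The interval function was tested on simulated data. Cells with Xist and no Y-linked UMI were taken as female, the reverse as male. Of the other genes of the pathway, those called in macrophages were named, and elsewhere those with 1.5-fold, 30 CPM and 30 UMIs in the higher library; Hpgd and Ptgr1 in monocytes were added after their values were seen. Coordinates are from GENCODE vM21 (mm10), promoters from RefSeq, which matched 8 of the 9 members.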

Additional observations from a re-analysis of the deposited data

Results flagged for a closer look

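Among the types in which Ptgs2 was called, its ratio of Lyz2-icre over control lay above 1 in neutrophils (1.68) and below 1 in C1q-low phagocytes (0.662), monocytes (0.576), cDC2 (0.529), CD8 T cells (0.628), other T cells (0.375) and NK cells (0.192). Alox5ap did the opposite in part, above 1 in migratory dendritic cells (2.96) and below 1 in neutrophils (0.633), CD8 T cells (0.528) and NK cells (0.327). In macrophages the Alox5ap ratio was 1.12 in female and 0.95 in male cells. In migratory dendritic cells the Ptgs2 ratio was 0.635 in female and 3.86 in male cells (11 Lyz2-icre and 26 control cells). None of these differences between cell types or sexes was tested, since each genotype has 1 library.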

How the results depend on the processing

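The count of members called in macrophages was 1 (Ltc4s), and stayed 1 without a cell filter, with a stricter one, with either clustering, with median-of-ratios scaling, without shared barcodes and with the tighter neutrophil gate. It was 2 with doubled gates, per-cell means and thinned cells (Hpgds and Ltc4s). In female cells it was 2 (Ptger4 and Hpgds), and in male cells 2 (Alox5 and Ltc4s). With no filter on low genes it was 2 (Ptger2 and Ltc4s), where 5.2% of genes were called in either direction. At 2-fold it was 0, where 0.455% of genes were called. Of the other pathway genes, 1 was called (Hpgd), but 4 in female cells, 2 in male cells and 3 with no filter on low genes. For doubled gates, per-cell means, thinned cells and each sex, the share of all genes called is not given. The counts under those settings are therefore not read against a background. The highest cell type was shared for 7 members, for 6 to 7 under the other settings and for 3 in male cells, which left 3 cell types. The log2 ratio turned positive with clusters for Ptgs2 in CD8 T cells (0.73, and 0.10 with the second clustering), Ptgs2 in NK cells (0.22 and 0.26) and Alox5ap in NK cells (0.21 and 0.22), in female cells for Alox5ap in CD8 T cells (0.048), and in male cells for Ptges in C1q-low phagocytes (0.41) and Ptgs2 in CD8 T cells (1.19). The male Ptges value rested on 1 Lyz2-icre UMI and 0 control UMIs and gives no direction. With the second clustering the log2 ratio was 0.07 for Ptgs2 in neutrophils and for Alox5ap in migratory dendritic cells. The cause was not tested. The tighter neutrophil gate left 48 Lyz2-icre and 137 control cells, below the minimum of 50, with Ptgs2 at 2879 and 1655 CPM. Alternatives with shared barcodes, the neutrophil gate and the second clustering were chosen after seeing the data. No paired analysis was possible because there is 1 library per genotype. Lower depth in the Lyz2-icre library limits genes with few UMIs.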

Other observations

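Mast cells and basophils were too few for the comparisons above but carried both branches. In 8 Lyz2-icre mast cells Hpgds was at 362 CPM (6 UMIs), Alox5 at 362 CPM and Alox5ap at 1025 CPM. In 30 control mast cells these genes were at 327 CPM (40 UMIs), 425 CPM and 1576 CPM. All lay above the macrophage levels of the same library. The Alox5 levels also lay above those of neutrophils, at 45.9 CPM in the Lyz2-icre and 46.6 CPM in the control library. The Alox5ap levels lay below those of neutrophils, at 1103 CPM in the Lyz2-icre and 1742 CPM in the control library. Ptgs2 was at 181 CPM in Lyz2-icre and 16.3 CPM in control mast cells (3 and 2 UMIs), and the 7 basophils of each library had 1680 CPM in the Lyz2-icre and 4640 CPM in the control library, where 1 cell gave 58.3% and 42.5% of the UMIs. Alox5ap was at 933 CPM in 17 Lyz2-icre and 695 CPM in 21 control plasmacytoid dendritic cells.

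In macrophages at 2000 UMIs per cell, Ptgs1 and Hpgds UMIs shared a cell 1.24 times as often as the product of their shares in the Lyz2-icre library and 1.23 times in the control library. For Ptgs1 and Ptgs2 the value was 0.916 in the Lyz2-icre and 0.983 in the control library, and for Alox5ap and Ltc4s 1.08 and 1.11. These are descriptions of pooled cells with no test.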
